A study of Sus scrofa with 21 samples.

Results

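The collagen genes encode the chains of the collagens, the main structural proteins of the matrix between cells. Every gene of the count table whose pig symbol read COL, a number, A and a number was taken as a member, which gave 37 of 24358 genes. Of these, 11 encode fibrillar chains, 7 encode chains of basement membranes or of collagens attached to them, and 19 encode other chains. A further 8 of the 45 chains on the class list, COL4A1 and COL6A2 among them, were not analysed here. RNA was sequenced from pig arteries sampled from inside the vessel with a device, and from aorta and whole blood. A 3D-printed microbrush gave 10 libraries, 5 from peripheral kidney arteries and 5 from peripheral liver arteries, and a Nitinol wire gave 4 libraries, 2 from each organ. From each of the pigs 243K and 248K came 5 microbrush libraries, 2 wire libraries and blood, which was sequenced in 2 libraries of 243K and 1 of 248K. All 4 aorta libraries came from pig 237053, so aorta and pig cannot be told apart. The labels give no strain, age or treatment for any pig, and no genetic change is named. Several libraries share a pig, so the p-values measure the spread between libraries and not between animals.

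Fibrillar collagens assemble into the staggered fibrils that give an artery its tensile strength, and smooth muscle cells and fibroblasts of the wall make most of them. Type IV collagen forms the network of the basement membrane under the endothelium and around each smooth muscle cell, and the collagens XV and XVIII link that membrane to the tissue beside it. The remaining chains form beaded filaments, short-chain networks or bridges between fibrils, or span the cell membrane. Circulating blood cells are not a main source of collagen. RefSeq positions on Sscrofa11.1, the build named in the submitters' processing notes, were found by symbol for 36 of the 37 members. Several members are neighbours: COL3A1 (chromosome 15, 93556914 to 93595678) lies 16177 bp from COL5A2 (chromosome 15, 93611856 to 93981131), and COL4A3 (chromosome 15, 128611640 to 128763331) overlaps COL4A4 (chromosome 15, 128472228 to 128612302) by 663 bp. Whether the counting used strand is not given in the sources used here, so reads in that overlap cannot be assigned to COL4A3 or COL4A4.

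Library totals ran from 1144949 to 11128400 estimated counts outside blood 2, which held 5633 counts and was left out of levels and tests. Its 20 collagen counts all belonged to COL4A3. Microbrush 4 had counts for 3831 genes and for 9 collagens, wire 2 for 17 collagens and wire 3 for 13. Levels are CPM, counts scaled to the library total with TMM factors, on a scale shared by the other 20 libraries. The summed level of 7 smooth muscle markers ran from 549.7 to 93833 CPM on the microbrush, 270 to 1345 CPM on the wire, 23610.1 to 49004 CPM in aorta and 48.5 to 77.2 CPM in blood, with none of the 7 at 0 throughout a group. For the 5 fibroblast markers in the table these ranges were 0 to 276 CPM, 0.265 to 120.9 CPM, 115.2 to 408 CPM and 17.4 to 47.9 CPM. The 7 endothelial markers summed to 181 to 2920 CPM on the microbrush, 270 to 1654 CPM on the wire, 125 to 160 CPM in aorta and 135 to 136 CPM in blood.

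Collagen transcripts made up a larger part of the aorta libraries than of any wire or blood library, and the microbrush libraries reached from below that range to above it. The 37 genes took 1.04%, 1.02%, 1.46% and 1.41% of all counts in aorta 1 to 4. On the wire they took 0.212%, 0.0317%, 0.00274% and 0.2% in wires 1 to 4, and in blood 0.0158% in blood 1 and 0.0513% in blood 3. On the microbrush the lowest share was 0.0477% in microbrush 4, the median 1.16% and the highest 7.6% in microbrush 9. The aorta libraries did not overlap the wire or the blood libraries, while the microbrush libraries overlapped the aorta, the wire and blood. Counting error was small beside these gaps, with a Wilson 95% interval of 0.00245% to 0.00307% for wire 3 and of 7.58% to 7.62% for microbrush 9. The intervals cover counting error only. The microbrush libraries with the 3 highest shares were 9, 5 and 7, whose smooth muscle markers summed to 91094, 93833 and 40809 CPM, and those with the 3 lowest were 4, 8 and 6, at 549.7, 959 and 1790.5 CPM. In between, microbrush 10 had a share of 1.19% with markers at 2371 CPM and microbrush 1 a share of 1.13% with markers at 40588 CPM. The part of smooth muscle content in the collagen levels was not tested, and in these bulk libraries fewer cells of a type and less RNA per cell cannot be told apart.

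**Figure D1:**
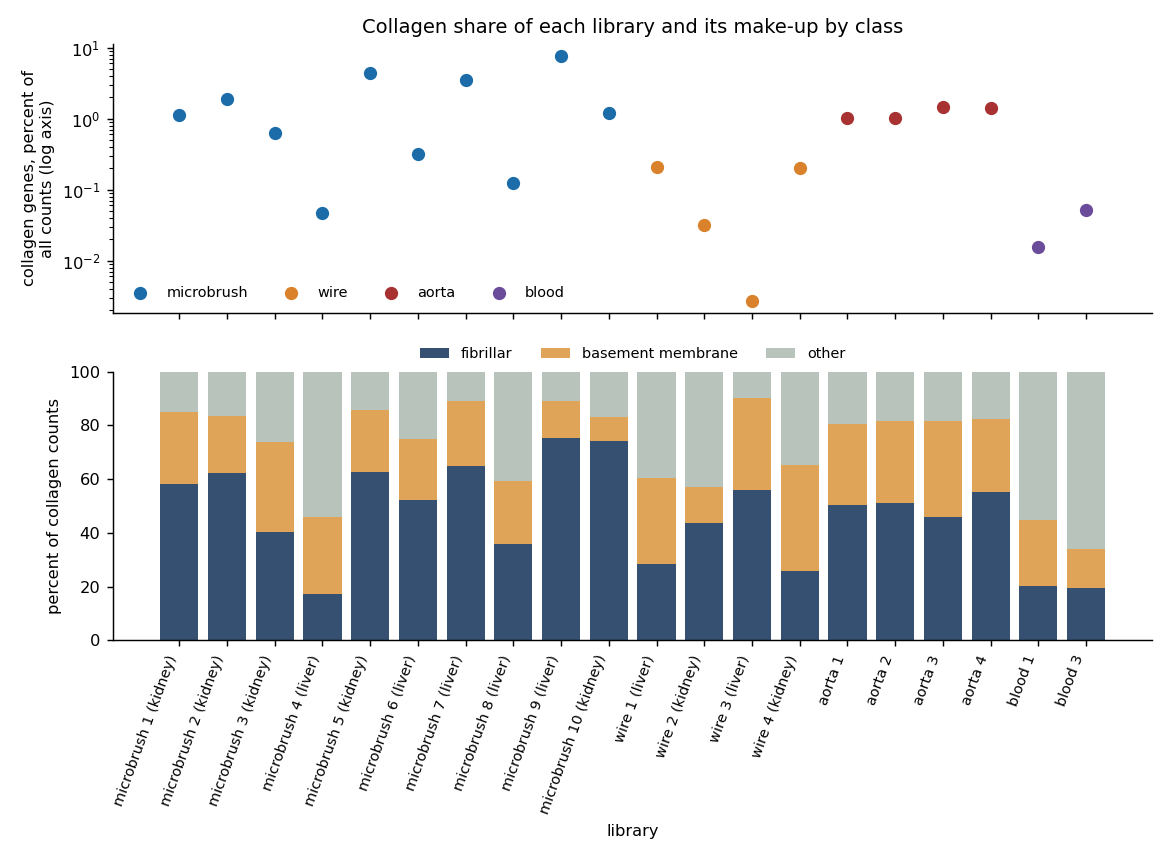
The upper panel shows the percent of all counts in the 37 collagen genes on a log axis, one point per library, and the lower panel the make-up of those collagen counts by class in percent, with bars from 0 to 100. The 4 aorta libraries sit between 1.02% and 1.46%, all wires lie at or under 0.212%, and fibrillar genes take 45.8% to 55.1% of the collagen counts in aorta against 19.4% to 20.1% in blood.

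The classes' parts of the collagen counts overlapped between aorta, microbrush and wire, and every class lay apart between aorta and blood. Between wire and aorta the overlap of fibrillar and of other chains came from wire 3 alone, which had 305 collagen counts. Wires 1, 2 and 4 had fibrillar parts of 28.3%, 43.6% and 25.6%, below all aorta libraries. Their parts of other chains were 39.5%, 42.8% and 34.7%, above all aorta libraries. Wire and blood were apart for fibrillar and for other chains. Microbrush and blood were apart for other chains, at most 54.1% against at least 55.1%. The 54.1% was that of microbrush 4, with counts for 9 collagens, and the next highest was 40.8% in microbrush 8. For fibrillar chains microbrush 4 alone reached down to blood, at 17.1%, and the next lowest microbrush library had 35.9%. Fibrillar genes took 45.8% to 55.1% of collagen counts in aorta, 17.1% to 75.5% on the microbrush, 25.6% to 56.1% on the wire and 19.4% to 20.1% in blood. Basement membrane genes took 27.4% to 35.7% in aorta, 8.6% to 33.7% on the microbrush, 13.6% to 39.7% on the wire and 14.8% to 24.9% in blood. The other chains took 17.5% to 19.5% in aorta, 10.9% to 54.1% on the microbrush, 9.84% to 42.8% on the wire and 55.1% to 65.8% in blood. These shares count reads and not molecules, so long transcripts weigh more than short ones. The type I and type III genes COL1A1, COL1A2 and COL3A1 together took 27% to 44.4% of collagen counts in aorta, 17.1% to 68.8% on the microbrush, 11.5% to 43.6% on the wire and 4.54% to 5.44% in blood. No test of these shares was run.

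Among the fibrillar genes, those of types I, III and V were high in all aorta libraries, spread over a wide range on the microbrush and low on the wire. COL1A1 (chromosome 12, 26379087 to 26397180), the alpha1 chain of type I collagen, stood at 1222, 994, 1570.1 and 2319.5 CPM in aorta 1 to 4 and at 174, 12.7, 27.5 and 45.5 CPM in wires 1 to 4. On the microbrush it ran from 17.3 CPM in microbrush 4 through a median of 1904 CPM to 26508 CPM in microbrush 9, and in blood it was 4.35 and 9.04 CPM. Every wire was below every aorta library for this gene, while 4 microbrush libraries lay above all aorta libraries and 3 below them all. COL3A1, the single chain of type III collagen, which is laid down beside type I in distensible vessels, stood at 1454, 1399, 1258 and 3415 CPM in aorta and at 157, 67.5, 5.29 and 16.2 CPM on the wires. Its microbrush values ran from 53.2 CPM through a median of 2667 CPM to 27995 CPM, and its blood values were 2.07 and 5.96 CPM. Again aorta and wire were apart, with 5 microbrush libraries above and 4 below all aorta libraries.

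COL1A2 (chromosome 9, 74174484 to 74210407), the alpha2 chain of type I collagen, ran from 285 to 862 CPM in aorta, 2.38 to 165 CPM on the wire, 15.1 to 9768 CPM on the microbrush and 1.45 to 3.49 CPM in blood. COL5A1 (chromosome 1, 273934219 to 274083264), a chain of the type V collagen that starts fibrils, stood at 589, 623, 1172 and 783 CPM in aorta and at 112.002, 18.6, 9.26 and 96.6 CPM on the wires. It was at 0 in microbrush 4, with a microbrush median of 542 CPM and a highest value of 3661 CPM, and blood held 2 counts of it in all. COL5A2, its partner chain, ran from 203 to 428 CPM in aorta, 0.794 to 115.8 CPM on the wire and 0 to 1820.0 CPM on the microbrush. The rarer type V chain COL5A3 stood at 59.8, 64.7, 97.3 and 65.1 CPM in aorta and at 3.3, 0, 0 and 8.6 CPM on the wires. On the microbrush COL5A3 reached 69.1 CPM with a median of 15 CPM, and 9 of 10 libraries were below the lowest aorta library. COL27A1 (chromosome 1, 254768576 to 254924893), a fibrillar chain best known from cartilage, stood at 298, 318, 546 and 289 CPM in aorta and at 14.7, 18.1, 0 and 15.2 CPM on the wires, with a microbrush range of 0 to 595 CPM. COL11A1 (chromosome 4, 115638381 to 115841679), a chain of the minor fibrillar type XI, was at 3.4 to 5.46 CPM in aorta, at 0 on 3 wires and 6.07 CPM on wire 4, and reached 125 CPM in microbrush 5, with 8 of 10 microbrush libraries above all aorta libraries. The cartilage chain COL2A1 had no count on any wire and at most 15 counts in any library.

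Among the basement membrane genes, COL4A2, COL4A5, COL4A6, COL15A1 and COL18A1 had levels in the aorta that no wire reached. COL4A2 (chromosome 11, 76996885 to 77161617), the partner of COL4A1 in the type IV network found in all vessels, stood at 1054, 861, 1399 and 1819 CPM in aorta and at 193, 0, 3.17 and 21.7 CPM on the wires. Its microbrush values ran from 73 CPM through a median of 959.8 CPM to 6039 CPM, and its blood values were 5.59 and 12.9 CPM. COL15A1 (chromosome 1, 240718128 to 240829188), which anchors basement membranes of vessels and muscle, stood at 633, 470.2, 749 and 1123 CPM in aorta and at 72.6, 0.843, 0 and 9.61 CPM on the wires, with a microbrush range of 0 to 2079.5 CPM around a median of 292 CPM. COL18A1 (chromosome 13, 207907835 to 207984082), the precursor of endostatin, was in relative terms nearest to overlapping: 772, 902, 1912 and 929.8 CPM in aorta against 468, 43, 22.2 and 723 CPM on the wires. On the microbrush it ran from 32 CPM through a median of 859.8 CPM to 3987 CPM, and it was 17.4 and 17.3 CPM in blood. The X-linked chains COL4A5 (chromosome X, 88958837 to 89183306) and COL4A6 (chromosome X, 88634925 to 88750938) were at 53.1 to 138 CPM and 17.6 to 54.5 CPM in aorta. On the wires they reached 29.2 CPM and 12.4 CPM, and both were at 0 on wires 2 and 3. COL4A3 and COL4A4, chains known best from the filter of the kidney glomerulus, stayed at or under 12.4 CPM and 6.45 CPM in aorta. On the microbrush they reached 40.5 CPM in microbrush 6, whose TMM factor of 0.339 raises its levels, and 71.7 CPM in microbrush 7.

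**Figure D2:**
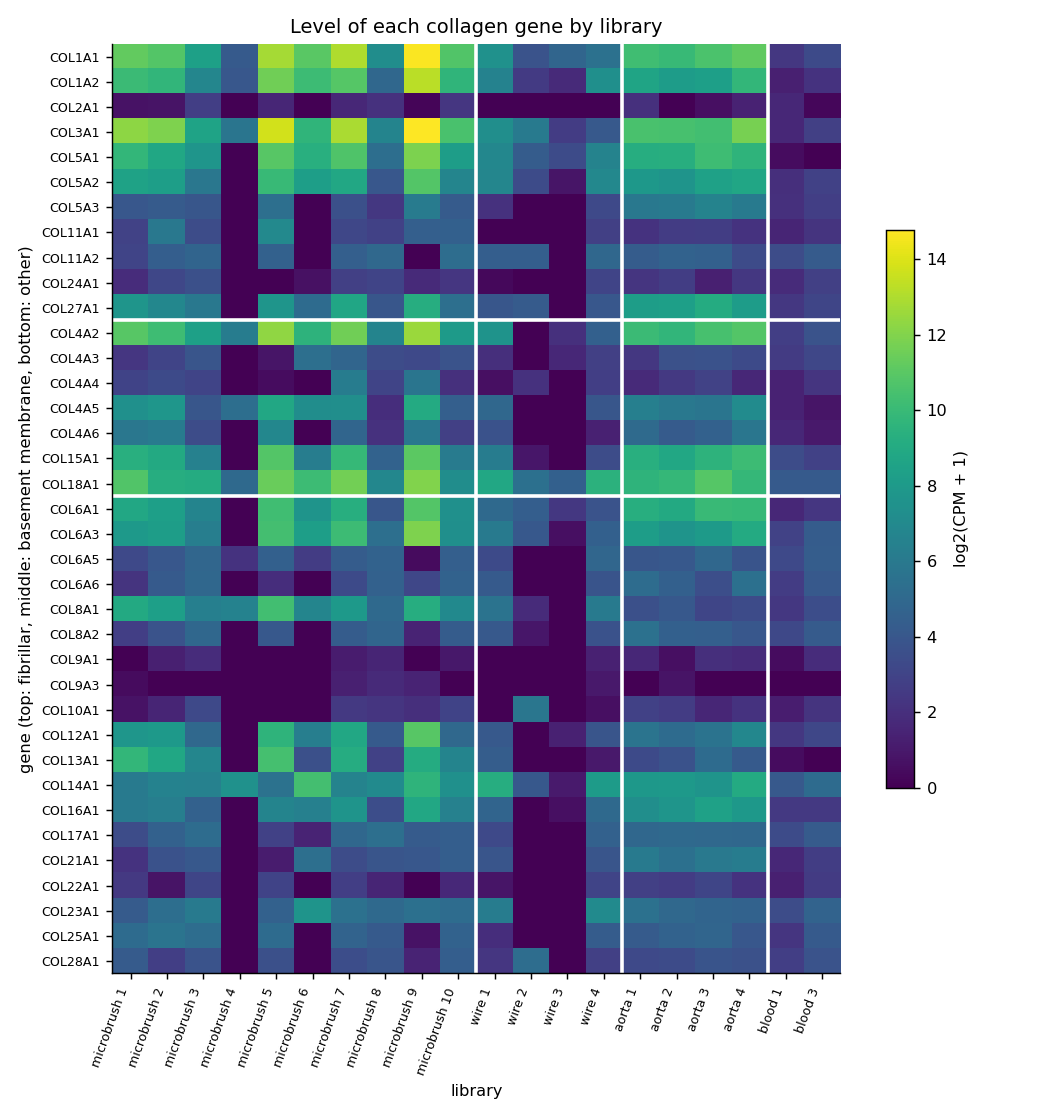
Each row is one of the 37 collagen genes, ordered by class from top to bottom (fibrillar, basement membrane, other), each column one library, and the colour is log2(CPM + 1). Microbrush 9 holds the brightest cells of COL1A1 and COL3A1, and microbrush 4 and wires 2 and 3 are at 0 for many genes.

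The other chains fell into several patterns. COL6A1, a chain of the beaded filaments of type VI collagen, stood at 620.1, 493, 1023 and 948 CPM in aorta and at 32, 20.7, 4.23 and 12.6 CPM on the wires, with a microbrush range of 0 to 1835 CPM. COL6A3 (chromosome 15, 137011549 to 137103687), the long chain of the same filaments, ran from 196 to 518 CPM in aorta, 0.529 to 68.3 CPM on the wire and 0 to 3902 CPM on the microbrush. COL12A1 (chromosome 1, 90744409 to 90875127), a bridge on the surface of type I fibrils, ran from 34.7 to 112.3 CPM in aorta, 0 to 16.3 CPM on the wire and 0 to 1977 CPM on the microbrush. Aorta and wire did not overlap for any of these 3 genes, and the microbrush values again spanned both. COL14A1 (chromosome 4, 18690197 to 18925111), another fibril-associated chain, differed from them: it stood at 237, 253, 200.04 and 530.2 CPM in aorta, at 598, 16, 1.06 and 278 CPM on the wires and at 46.8 to 1318 CPM on the microbrush. Wire 1 held more COL14A1 than any aorta library, and blood held 16.8 and 35.3 CPM.

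COL8A1 (chromosome 13, 159216138 to 159374718), a chain of the short-chain network of type VIII collagen found under vascular endothelium, was low in aorta and high on the microbrush. It stood at 11.2, 16.1, 7.45 and 9.36 CPM in aorta. In the kidney microbrush libraries 1, 2, 3, 5 and 10 it stood at 511, 329, 81, 1284 and 128 CPM, and in the liver microbrush libraries 4, 6, 7, 8 and 9 at 93.3, 103.3, 247, 32.3 and 581 CPM. All 10 microbrush libraries were above all 4 aorta libraries, microbrush 4 with its few detected genes included. On the wires COL8A1 stood at 49.3, 2.53, 0 and 64.2 CPM, so that wires 1 and 4 were above the aorta and wires 2 and 3 below it, and blood held 4.35 and 10.1 CPM. Its partner chain COL8A2 did not share the pattern, with 15.3 to 44.4 CPM in aorta and 0 to 29.5 CPM on the microbrush. COL13A1 (chromosome 14, 72786780 to 72953093), a membrane-spanning collagen of cell adhesion sites, stood at 9.09, 12.4, 34.3 and 17.4 CPM in aorta and at 872, 443, 108.7, 1386 and 101.3 CPM in kidney microbrush libraries 1, 2, 3, 5 and 10. In liver microbrush libraries 4, 6, 7, 8 and 9 it stood at 0, 11, 568, 6.27 and 552 CPM. Thus 7 of 10 microbrush libraries, all 5 from the kidney among them, were above all aorta libraries. COL21A1 (chromosome 7, 29414851 to 29609039), a fibril-associated chain of vessel walls, showed the opposite order, with 64, 42.1, 61.1 and 73.2 CPM in aorta and at most 40.8 CPM on the microbrush.

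**Figure D3:**
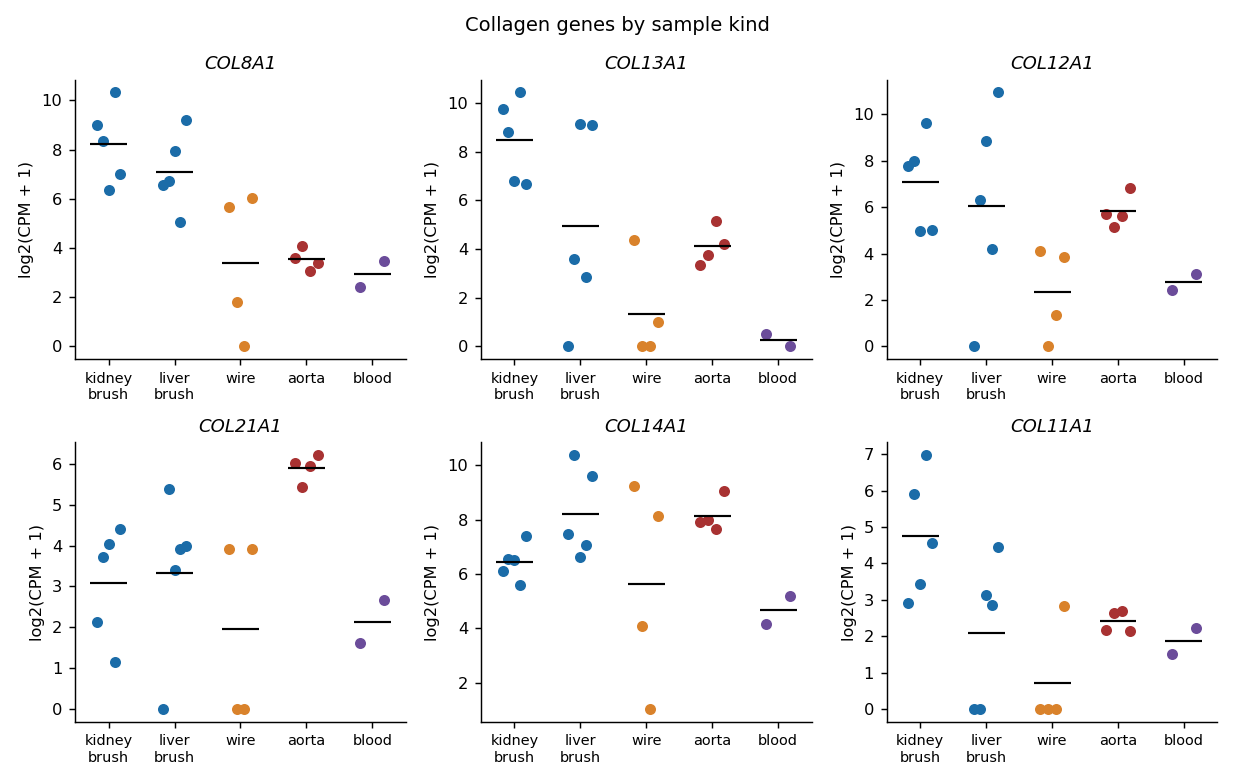
Each panel shows one gene, with log2(CPM + 1) on the vertical axis, one point per library, the kidney and liver microbrush libraries apart, and a bar at the mean of the points. COL8A1 lies higher in all microbrush libraries than in all aorta libraries, COL21A1 lower, and COL14A1 spans the aorta in the wires.

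The comparison of aorta with blood set a vessel of pig 237053 against blood of the pigs 243K and 248K, so tissue and pig cannot be told apart. Collagens of all 3 classes were higher in aorta: 19 of 35 tested members were called by edgeR (Benjamini-Hochberg adjusted p under 0.05), all higher in aorta, beside 9.82% of all 17082 genes tested. The 19 comprised 7 fibrillar genes, 5 basement membrane genes and 7 others. The median log2 fold change over the 35 members was 3.34, against 0.15 over all genes. COL3A1 was higher by a log2 fold change of 8.66 (SE 1.02, edgeR adjusted p = 2.85e-15). COL6A1 was higher by 7.73 (SE 0.93, edgeR adjusted p = 6.39e-15) and COL1A1 by 7.62 (SE 0.96, 1.57e-13). COL4A2 was higher by 6.90 (SE 0.91, edgeR adjusted p = 2.39e-12), COL15A1 by 6.28 (SE 0.85, adjusted p = 8.65e-12) and COL18A1 by 5.78 (SE 0.85, adjusted p = 4.08e-10). Smaller differences were those of COL6A3 at 4.46 (SE 0.71, edgeR adjusted p = 7.74e-09), COL14A1 at 3.34 (SE 0.66, adjusted p = 5.18e-06) and COL12A1 at 3.11 (SE 0.51, adjusted p = 2.51e-08). For COL5A1 and COL13A1, with 2 counts each in blood, the ratio of the rate in aorta to that in blood was 3783 (exact 95% interval 1047 to 31242) and 83.8 (22.9 to 697), intervals that cover counting error only.

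The remaining 16 tested members did not pass between aorta and blood. They were COL11A1, COL11A2 and COL24A1 among the fibrillar genes, COL4A3 and COL4A4 among the basement membrane genes, and 11 others that included COL8A1 and COL8A2. Their aorta means ran from 2.03 to 31.3 CPM and their blood means from 1.54 to 17.5 CPM. COL8A1 had a log2 fold change of 0.40 (SE 0.57, edgeR adjusted p = 0.638), which was -0.041 without blood 1. All 7 smooth muscle markers and all 5 fibroblast markers were called higher in aorta as well, and their part in the collagen difference was not tested. The groups did not overlap for 20 members, all higher in aorta, beside 24.1% of all genes. The 19 calls came from 2 blood libraries: with blood 2 included 4 members passed, beside 0.985% of all genes called higher in aorta, and in a fit that shared the spread of all groups COL5A1 alone did, beside 0.0439%.

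The comparison of the wire with the aorta set RNA brought out by a device against a vessel. The wires sampled kidney and liver arteries of pigs 243K and 248K and the aorta was of pig 237053. Device, artery and pig therefore cannot be told apart. The fibrillar genes COL1A1, COL3A1, COL5A1 and COL27A1 and the filament gene COL6A1 were lower on the wire, and the other 6 tested fibrillar genes did not pass. Of 32 tested members 28 had negative and 4 positive fold changes, where 39.5% of all 15313 genes had positive ones. By edgeR 5 members passed, all higher in aorta, beside 0.764% of all genes called in that direction. Another 2.8% of all genes were called higher on the wire, which made 3.57% in either direction. COL6A1 differed by a log2 fold change of -5.36 (SE 0.74, edgeR adjusted p = 0.00521) and COL1A1 by -4.47 (SE 0.87, adjusted p = 0.0175). COL3A1 differed by -4.82 (SE 1.03, edgeR adjusted p = 0.0282), COL27A1 by -4.79 (SE 1.04, adjusted p = 0.0304) and COL5A1 by -3.64 (SE 0.82, adjusted p = 0.0345). The members' median was -2.06 against -0.29 over all genes. All wires were below all aorta libraries for 18 of 32 members, beside 13.7% of all genes, COL4A2 (-4.47, SE 1.46, adjusted p = 0.157) and COL18A1 (-1.75, SE 0.96, adjusted p = 0.569) among them. COL14A1 was at -0.35 (edgeR adjusted p = 0.969), with a positive sign without wire 2, wire 3 or aorta 4. Of the 7 smooth muscle markers 4 were also called higher in aorta and 2 of 7 pericyte and stellate cell markers were, whereas 0 of 5 fibroblast markers passed. Their part in the collagen difference was not tested.

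The number of calls between wire and aorta turned on single libraries. COL6A1 passed in each fit that left out 1 library, with adjusted p from 8.65e-14 to 0.0427 over all alternatives. The other 4 genes missed the threshold in some of them. Without aorta 1, without aorta 2 or without aorta 4, 1 member passed, beside 0.141%, 0.129% and 0.19% of all genes called higher in aorta. Without aorta 3 or without wire 2, 2 members passed, beside 0.262% and 0.645%. The main fit called 0.764% of all genes in that direction, so the number of calls over all genes fell too. When wires 2 and 3, which had few detected genes, were left out together, 15 members passed, 13 of them higher in aorta, where 3.36% of all genes were called higher in aorta and 5.11% higher on the wire. The other 2 were COL8A1, higher on the wire by 2.44, and COL23A1, a membrane-spanning chain, by 1.82.

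The comparison of the microbrush with the wire set both devices against each other in arteries of the same organs and pigs. The microbrush libraries held more of most collagens on average, but none passed the test. Of 34 tested members 30 had positive fold changes, where 57.6% of all 16439 genes had them. By edgeR 0 members passed, beside 0% of all genes. An unadjusted p under 0.05 was found for 17 members and for 518 genes in all. COL3A1 averaged 6116 ± 8842 CPM (SD, n = 10) on the microbrush and 61.6 ± 69.4 CPM (SD, n = 4) on the wire, a log2 fold change of 6.61 (SE 1.69, edgeR adjusted p = 0.392). COL1A1 averaged 5030.3 ± 8062 CPM against 64.9 ± 73.9 CPM, a log2 fold change of 6.27 (SE 1.63, edgeR adjusted p = 0.436). Without microbrush 9 the microbrush means were 3685 ± 4635 CPM for COL3A1 and 2644 ± 3009 CPM for COL1A1 (SD, n = 9), and the log2 fold changes 5.84 and 5.28. The standard deviations exceeded the means in both groups for these genes, and the groups overlapped for all 34 members, where 0.0365% of all genes were higher in every microbrush library and 0.0182% in every wire. Medians by class were 3.88 for fibrillar genes, 3.26 for basement membrane genes and 0.77 for the others, against 0.17 over all genes.

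Within those classes the spread between members was wide. COL13A1 at 6.22, COL12A1 at 5.61, COL4A2 at 5.09 and COL15A1 at 4.88 had the adjusted p-values 0.502, 0.521, 0.585 and 0.788 in edgeR's test, and COL5A1 at 4.01 and COL8A1 at 3.52 both had 0.801. COL6A1 and COL6A3 were at 4.79 and 4.77, COL18A1 at 2.11 and COL14A1 at 0.28, whose sign turned without wire 2, wire 3 or microbrush 9. COL12A1 and COL8A1 were higher in 9 of 10 microbrush libraries than in every wire, and COL1A1, COL3A1, COL5A1 and COL6A1 in 8. DESeq2 called 8 members, COL1A1, COL1A2, COL3A1, COL4A2, COL6A1, COL6A3, COL12A1 and COL13A1, all higher on the microbrush, beside 0.584% of all genes called in that direction by DESeq2. The libraries of pig 248K alone gave 10 members, beside 0.255% of all genes, and those of pig 243K alone 0. Wires 2 and 3, with few detected genes, are the wires of pig 248K, and the effects of pig and of these libraries cannot be told apart. The 7 smooth muscle markers also had positive fold changes, with a median of 5.10, and 0 passed.

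**Figure D4:**
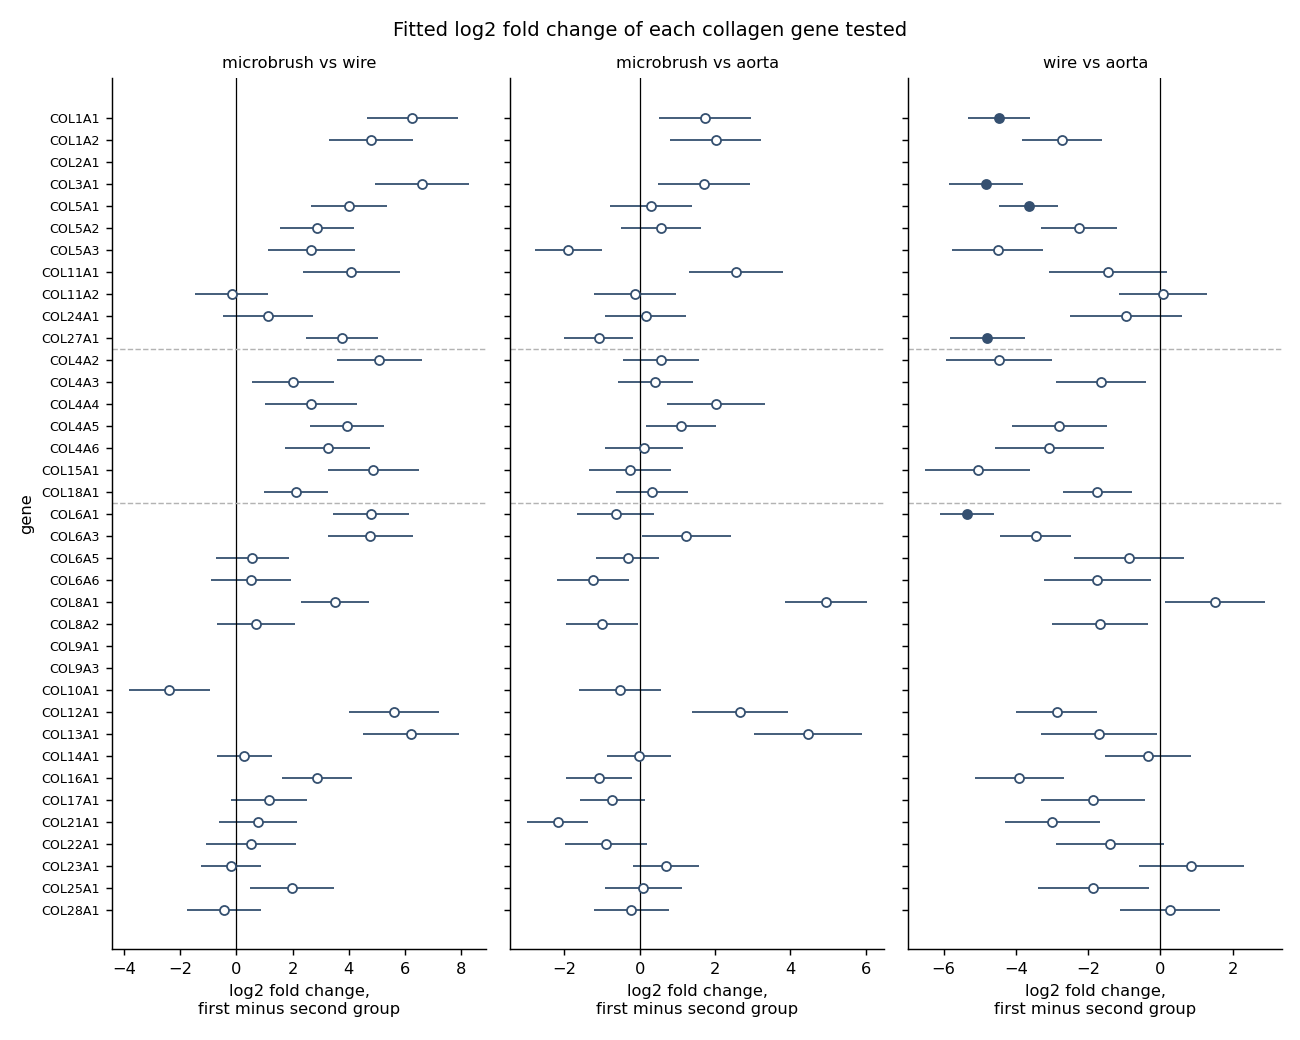
Each point is the fitted log2 fold change of one collagen gene, first minus second group, with a bar of 1 standard error to each side, and filled points passed at an adjusted p under 0.05. In the left panel 30 of 34 points lie above 0 and none is filled, in the middle panel COL8A1 lies farthest to the right at 4.95, and in the right panel the 5 filled points lie between -5.36 and -3.64.

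The comparison of the microbrush with the aorta set the brushed arteries of pigs 243K and 248K against another vessel of pig 237053. Here too device, artery and pig cannot be told apart. No collagen passed: by edgeR 0 of 34 tested members did, beside 0.125% of all 16776 genes (0.0596% higher on the microbrush and 0.0656% higher in aorta), while 5 members and 805 genes had an unadjusted p under 0.05. DESeq2 called 2 members, COL8A1 and COL13A1, beside 0.894% of all genes called higher on the microbrush. The median over members was 0.14, against -0.17 over all genes. The fibrillar genes COL1A1 and COL3A1 were at 1.73 (SE 1.22) and 1.71 (SE 1.23), both with an edgeR adjusted p of 1. Without microbrush 9 they were at 0.80 and 0.98. COL4A2 at 0.56, COL5A1 at 0.31 (-0.24 with RLE scaling and -0.22 without microbrush 9) and COL6A1 at -0.64 lay within 1 standard error of 0. COL8A1 had a log2 fold change of 4.95 (SE 1.09, edgeR adjusted p = 0.0602), with 339 ± 382 CPM (SD, n = 10) against 11 ± 3.71 CPM (SD, n = 4). It passed without the filter on low counts, without microbrush 9 (adjusted p = 0.0438) and in DESeq2, the adjusted p running from 7.07e-07 to 0.436 over the alternatives. COL13A1 followed at 4.47 (SE 1.43, edgeR adjusted p = 0.32), with adjusted p from 0.0181 in DESeq2 to 1. COL12A1 at 2.66 (SE 1.28), COL11A1 at 2.55 (SE 1.25) and COL5A3 at -1.89 (SE 0.89) had adjusted p-values of 1, 1 and 0.946. COL21A1 was at -2.17 (SE 0.81, edgeR adjusted p = 0.548). COL8A1 was the member with all microbrush libraries higher, beside 0.405% of all genes, and COL21A1 the member with all lower, beside 1.43%.

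Against blood, the microbrush libraries had positive fold changes for 34 of 36 tested members, where 57.3% of all 17832 genes had them. In edgeR's test 0 members passed, beside 0.0168% of all genes, while 18 members and 670 genes had an unadjusted p under 0.05. The fold changes were 10.59 for COL3A1, 9.57 for COL1A1 and 7.69 for COL4A2, with standard errors of 2.76, 2.62 and 2.17 and edgeR adjusted p-values of 0.403, 0.468 and 0.515. COL8A1 at 5.58 and COL18A1 at 6.37 had adjusted p-values of 0.618 and 0.665. For 8 members, these 5 among them, all microbrush libraries were above both blood libraries, beside 0.841% of all genes. DESeq2 called 17 members, beside 1.56% of all genes called higher on the microbrush. Without the filter on low counts COL3A1 and COL5A1 passed, beside 0.0184%, and without microbrush 9 COL5A1 did, beside 0.0114%. The rate of COL5A1 relative to blood was 4731 (exact 95% interval 1309.6 to 39067) on the microbrush and 150.3 (41.5 to 1244) on the wire, for counts summed over libraries and with intervals that cover counting error only. Without microbrush 9 the rate on the microbrush was 2623 (726 to 21659). These comparisons and that of aorta with blood share the 2 blood libraries.

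The wire was set against the same blood libraries. Of 32 tested members 21 had positive fold changes against blood, where 37.9% of all 16461 genes had them. The members' median was 1.02, against -0.34 over all genes. In edgeR's test 0 members passed, beside 0.0486% of all genes, while 6 members and 724 genes had an unadjusted p under 0.05. COL1A1 was at 3.20 (SE 1.19, edgeR adjusted p = 0.575) and COL18A1 at 4.15 (SE 1.54, adjusted p = 0.811). All 4 wires were above both blood libraries for COL1A1, COL5A1, COL6A1 and COL18A1, that is 4 of 32 members, beside 3.21% of all genes. COL5A1 passed without wire 3, beside 0.0497% of all genes called higher on the wire, and with the pig as a block, beside 0.0972%. DESeq2 called 5 members, beside 1.49% of all genes, and 11 passed when wires 2 and 3 were left out together, beside 2.07% called higher on the wire. Of the 7 smooth muscle markers 2 were called higher on the wire than in blood.

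Kidney and liver microbrush libraries, 5 of each, asked whether the arteries of the organs differ. No collagen did by this test: 0 of 32 members passed by edgeR, beside 0% of all 15013 genes. DESeq2 called 0 members too, beside 0.44% of all genes (0.426% called higher in liver libraries). In edgeR's test 2 members and 238 genes in all had an unadjusted p under 0.05. COL14A1 averaged 92.9 ± 45.1 CPM (SD, n = 5) in kidney and 499 ± 535 CPM (SD, n = 5) in liver libraries, a log2 fold change of -2.24 (SE 0.92, edgeR adjusted p = 1). Its liver values of 1318 CPM in microbrush 6 and 772 CPM in microbrush 9 were the 2 highest. Microbrush 6 has a TMM factor of 0.339, which raises its level. The kidney libraries 1, 2, 3, 5 and 10 have factors of 0.662, 1.56, 2.06, 1.01 and 1.95, and those above 1 lower the levels. The kidney and liver groups overlapped for COL14A1. They overlapped for every member, where 0.286% of all genes were higher in every kidney library and 0.0933% in every liver library. COL11A1 averaged 44.6 ± 49.6 CPM in kidney and 6.99 ± 8.54 CPM in liver libraries, a log2 fold change of 2.75 (SE 1.32, edgeR adjusted p = 1). COL8A1 was at 1.30 and COL3A1 at -0.43, and without microbrush 9 COL3A1 turned to 1.28. The members' median was -0.06, where all genes had a median of 0.50 with 73.9% positive. The product of device and organ, fitted over microbrush and wire, passed for 0 of 16439 genes by edgeR, and 1 member, COL10A1, had an unadjusted p under 0.05 there. COL10A1, a chain of growing cartilage, was at 55.2 CPM on wire 2 and at most 8.71 CPM elsewhere.

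Ratios between chains within a library do not depend on how much collagen it held. Type I collagen is built mostly from more alpha1 than alpha2 chains, and the counts of COL1A1 and COL1A2 had a log2 ratio of 1.31 ± 0.62 (SD, n = 10) on the microbrush and 1.79 ± 0.37 (SD, n = 4) in aorta. They differed by -0.48, which was within the spread (exact two-sided permutation p = 0.183, adjusted over 4 tests 0.508). For COL3A1 to COL1A1 the log2 ratio was 0.27 ± 0.90 on the microbrush and 0.25 ± 0.40 in aorta, a difference of 0.03 (exact two-sided permutation p = 0.949). Between kidney and liver libraries COL1A1 to COL1A2 differed by -0.16 (exact permutation p = 0.722) and COL3A1 to COL1A1 by 0.70 (exact permutation p = 0.254, adjusted 0.508). On the wires both ratios were scattered: COL1A1 to COL1A2 stood at 0.90, 1.37, 3.39 and -1.85 in wires 1 to 4, and wire 4 was the only library with more COL1A2 than COL1A1. Wire 2 had 30 counts of COL1A1 and 11 of COL1A2, and wire 3 had 9 of COL1A2, so their COL1A1 to COL1A2 ratios rest on few counts. For COL3A1, wires 3 and 4 had 20 and 32 counts, which are few as well. Wire 4 had 90 counts of COL1A1 and 326 of COL1A2, and the cause of its negative COL1A1 to COL1A2 ratio was not tested.

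**Figure D5:**
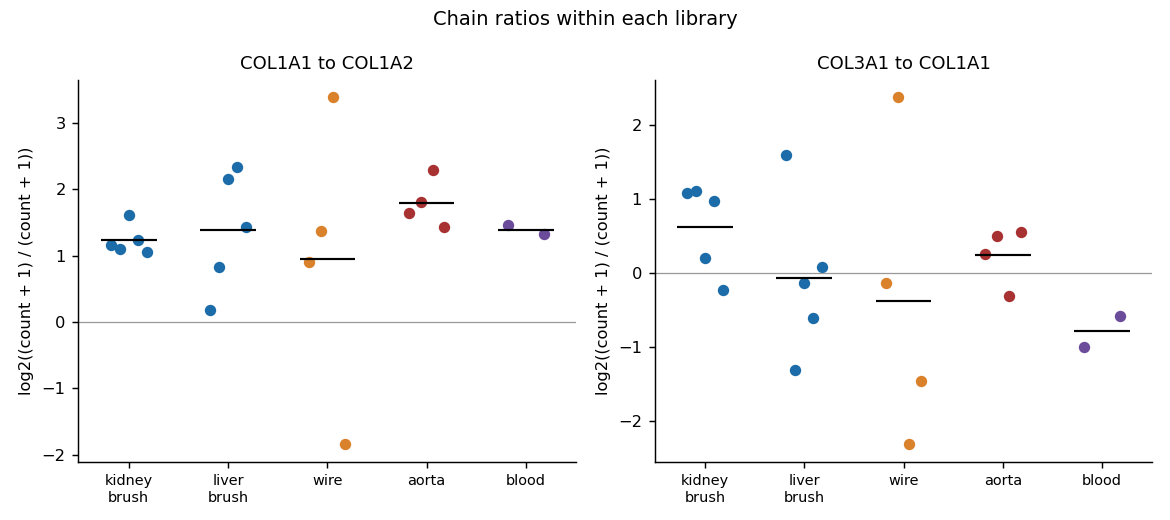
Each point is one library and each bar the mean of its group, with log2((count + 1) / (count + 1)) of the named chains on the vertical axis. The aorta libraries lie between 1.43 and 2.30 for COL1A1 to COL1A2, and the wires spread from -1.85 to 3.39.

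Genes that process, bind and degrade collagen were followed beside the members. In aorta against blood 9.82% of all 17082 genes were called higher in aorta and 18.7% higher in blood. Of 19 genes of chain modification and folding 6 passed there with higher levels in aorta. Among them were SERPINH1, the collagen chaperone, at a log2 fold change of 4.67 (SE 0.62, edgeR adjusted p = 3.06e-12) and P3H3, a prolyl hydroxylase family member, at 4.82 (SE 0.69, adjusted p = 1.08e-10). P4HA1, a catalytic subunit of prolyl 4-hydroxylase, passed the other way at -1.49 (SE 0.48, edgeR adjusted p = 0.00909). Of 14 tested genes of maturation and crosslinking 9 passed, all higher in aorta, including SPARC, a collagen-binding matrix protein, at 6.96 (SE 0.89, edgeR adjusted p = 3.26e-13) and LOXL1, a lysyl oxidase, at 4.98 (SE 0.62, adjusted p = 5.74e-14). Of 10 receptor genes 4 were higher in aorta, DDR2 and MRC2 among them, and ITGA2, the collagen receptor subunit of platelets and epithelia, was lower at -2.76 (SE 0.62, edgeR adjusted p = 8.24e-05). Of 9 tested breakdown genes 4 were higher in aorta, including MMP2, a gelatinase, at 5.35 (SE 0.69, edgeR adjusted p = 8.27e-13). Between wire and aorta 1 gene of these lists passed, ITGA2, higher on the wire by 5.83 (SE 1.19, edgeR adjusted p = 0.0225). The 3 platelet markers in the table summed to 219 to 2380.3 CPM on the wire and 21.8 to 31.5 CPM in aorta. Of these 3, 2 were called higher on the wire, beside 2.8% of all genes called in that direction. No gene of these lists passed between microbrush and wire, microbrush and aorta, microbrush and blood, wire and blood, or kidney and liver.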

How the data were processed

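The authors deposited estimated counts per Ensembl gene for 21 pig libraries in a single table, from total RNA taken with the RNAdvance Tissue kit and SMARTer Pico, per the labels' protocols. Per the submitters' processing notes Salmon and DESeq2 were used with the build Sscrofa11.1, and versions, annotation release and strand setting are not given in the sources used here. Of the values 11.9% were not whole, and they were rounded. Each comparison was fitted over all genes, from the libraries it compares, by edgeR 4.0.16 (R 4.3.3) (filterByExpr with a minimum count of 10, TMM scaling, robust quasi-likelihood test, Benjamini-Hochberg adjusted p under 0.05). Blood 2, with under 100000 counts, was left out of levels and tests and entered an alternative. CPM levels use TMM over the other 20 libraries. Fold changes are log2, first group minus second. Ratios used a pseudocount of 1 and exact permutation. Ratios with COL4A1, which was not analysed here, could not be run, so 4 tests were adjusted and not 6.

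Genes were described by a rule: 14 main chains in full, members past the threshold by size of change, and the rest by range. The members and lists were chosen with earlier results of these data known. COL2A1, COL8A2, COL10A1, COL23A1 and P4HA1 were named after their values were seen. Alternatives were RLE scaling, no filter, DESeq2 1.42.0, a common fit, single organs and pigs, a pig block and each replicate left out. The fits without wires 2 and 3 or microbrush 9 were chosen after seeing the data. The test was tried on simulated counts with known changes, drawn independently for each gene and without libraries of few detected genes. The outcome is not given here, and no result above rests on it. No 2 libraries of a group were copies.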

Additional observations from a re-analysis of the deposited data

Results flagged for a closer look

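In groups of 4 to 10 libraries, 45 sets of collagen levels were examined for a highest or lowest library far from the others by Dixon's criterion, and 14 met it. Chance meets it in about 1 in 20 for independent, normally distributed values, which these are not, since the levels are skewed and genes of a library move together, so the number has no chance level to be read against. Microbrush 9 stood above the other microbrush libraries for COL1A1 (26508 CPM), COL1A2 (9768 CPM), COL3A1 (27995 CPM), COL5A1 (3661 CPM), COL6A3 (3902 CPM) and COL12A1 (1977 CPM). Microbrush 5 did so for COL8A1 (1284 CPM) and COL11A1 (125 CPM). Wire 1 stood above the other wires for COL4A2 (193 CPM) and COL15A1 (72.6 CPM), and wire 4 for COL11A1 (6.07 CPM), where the other 3 wires were at 0 and any count would meet the criterion. Aorta 4 stood above the other aorta libraries for COL3A1 (3415 CPM) and COL14A1 (530.2 CPM), and aorta 3 for COL18A1 (1912 CPM). In blood 2, which entered no main comparison, all 20 collagen counts were of COL4A3.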

How the results depend on the processing

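The count of collagens called kept within 1.5 times its main value under most alternatives. Many of these belonged to comparisons with a main count of 0, where few or no genes passed at all, so an unchanged count says little there. For wire and aorta, with a main count of 5, most alternatives moved the count further than that, to between 1 and 15. DESeq2 raised the count from 0 to 8 (microbrush and wire), 0 to 2 (microbrush and aorta), 5 to 11 (wire and aorta), 0 to 17 (microbrush and blood) and 0 to 5 (wire and blood). For wire and aorta DESeq2 called 7.29% of all genes, 3.28% higher in aorta, against 3.57% and 0.764% in the main fit. Without the filter the count of collagens was 1 for microbrush and aorta and 2 for microbrush and blood. Without microbrush 9 it was 1 for microbrush and aorta (COL8A1) and 1 for microbrush and blood (COL5A1). The common fit gave 1 for wire and aorta and 1 for aorta and blood, where blood 2 included gave 4. Pig 248K alone gave 10 for microbrush and wire. Leaving out 1 replicate gave 1 to 7 for wire and aorta. Leaving out 1 aorta library gave 19 for aorta and blood, beside 7.8% to 9.19% of all genes called higher in aorta. Leaving out 1 wire gave 0 to 1 for wire and blood. Without wires 2 and 3 the count was 15 for wire and aorta and 11 for wire and blood. Between wire and aorta the share of all genes called higher in aorta ran from 0.129% without aorta 2 to 6.43% without wire 4. With the pig as a replicate block the count of collagens called was 0 for microbrush and wire, microbrush and blood, and kidney and liver. For wire and blood it was 1, COL5A1. The direction turned in 18 settings, and the cause was not tested. COL14A1, microbrush and wire, was -0.10 without wire 2, -0.27 without wire 3, -0.063 without microbrush 9, -0.67 in kidney alone, -0.83 without both wires and -0.67 without microbrush 4 too, and for wire and aorta it was 0.04, 0.07 and 0.10 without wire 2, wire 3 or aorta 4 and 0.58 without both wires, from -1.52 to 0.10 over all single replicates. COL5A1, microbrush and aorta, was -0.24 with RLE scaling, -0.24 in DESeq2 and from -0.22 without microbrush 9 to 0.57 without aorta 3, COL8A1, aorta and blood, ran from -0.041 without blood 1 to 0.97 without blood 3, and COL3A1, kidney and liver, from -1.27 without microbrush 5 to 1.28 without microbrush 9. The ratio of COL3A1 to COL1A1, microbrush and aorta, ran from -0.16 to 0.13, and that of COL1A1 to COL1A2, kidney and liver, from -0.46 to 0.0795, when 1 replicate was left out. Few counts limit COL2A1, COL9A1 and COL9A3, and the low number of detected genes limits microbrush 4 and wires 2 and 3.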
